A study of Mus musculus with 6 samples.

Results

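The 10 genes described here encode aldehyde dehydrogenases: Aldh1a1, Aldh1a2, Aldh1a3, Aldh1b1, Aldh2, Aldh3a1, Aldh3a2, Aldh3b1, Aldh7a1 and Aldh9a1. They were taken by symbol from a table of 35275 mouse genes that holds 21 Aldh genes in all. The comparison from which their differences are given below was known when they were chosen, and so was the exchange between Aldh3a1 and Aldh1a1. Their own differences are therefore a description, with no test. RNA was sequenced from ID8-KMF cells, a C57Bl6/J mouse ovarian cancer line made by passaging ID8 cells in vivo. All cells lacked the endogenous Rgnef gene (Rgnef-/-). The Rgnef_KO group has 3 libraries of knockout cells with no construct. The GFP_Rgnef group has 3 libraries of the same knockout cells re-expressing GFP-tagged Rgnef from a lentivirus. Rgnef, the product of Arhgef28, is a guanine nucleotide exchange factor. Both groups were grown as subconfluent monolayers on dishes seeded with 0.2% Matrigel, with no treatment named. Rgnef, its tag and the virus differ together between the groups and cannot be told apart. Genes of chromosomes 7 and 9 were also higher in the knockout as a set (median log2 differences 0.24 and 0.28). The cause of this was not tested. Cells with the unedited gene were not analysed here. The labels do not tell whether the libraries of a group were separate cultures, so the p-values given here measure the spread between libraries, which may be technical.

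Aldehyde dehydrogenases oxidise aldehydes to carboxylic acids with NAD or NADP, through a catalytic cysteine. The Aldh1a enzymes turn retinaldehyde into retinoic acid, a ligand of nuclear receptors. Aldh2 and Aldh1b1 are mitochondrial enzymes best known for acetaldehyde, and the Aldh3 enzymes act on fatty and aromatic aldehydes and on aldehydes from lipid peroxidation. In ovarian cancer, high aldehyde dehydrogenase activity and ALDH1A1 protein have been used to mark tumour-initiating cells in human material.

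The coding stretches around the catalytic cysteine are shown because they place the exchanged pair, Aldh3a1 and Aldh1a1, in the family beside some of their relatives. Each line is 45 bases of the GENCODE M21 coding sequence (GRCm38), 5′ to 3′, and the capitals mark the cysteine codon.
Aldh1a1, codon 303: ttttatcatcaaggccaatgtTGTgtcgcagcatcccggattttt
Aldh1a7, codon 303: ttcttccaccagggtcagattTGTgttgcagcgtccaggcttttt
Aldh2, codon 321: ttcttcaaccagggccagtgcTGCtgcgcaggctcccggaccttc
Aldh3a1, codon 244: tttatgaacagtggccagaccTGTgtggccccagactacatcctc
Aldh3a2, codon 241: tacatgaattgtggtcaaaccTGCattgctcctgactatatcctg
Aldh1a1 and its neighbour Aldh1a7 have 91.6% identical coding bases over 1506 aligned bases. Of the 50-base words in Aldh1a1 transcripts 3.06% also occur in Aldh1a7, and 7.49% of those in Aldh1a7 occur in Aldh1a1. Reads from these words could have been counted to either gene. In the knockout libraries Aldh1a1 had 468 to 484 reads and Aldh1a7 had 18 to 23. A small part of the Aldh1a1 reads could therefore be a large part of those counted to Aldh1a7.

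The labels matched the level of the targeted gene, since Arhgef28 had 12 to 14 reads in the knockout libraries and 5067 to 6095 in the GFP_Rgnef libraries. Values are FPKM, fragments per kilobase of transcript scaled to the depth of the library, as deposited. Whole reads could be recovered from them, with depths of 15898965 to 17977069 reads per library. Of 8 markers of the epithelial and mesothelial cells from which ID8 derives, 6 had a mean of at least 1 FPKM, and Krt7 and Lrrn4 did not. Their sum was 1545 to 2476 FPKM in the knockout libraries and 1649 to 2458 FPKM in the GFP_Rgnef libraries. Among single markers, Krt18 differed, at 230.4, 213.8 and 229.0 FPKM in the knockout libraries. In the GFP_Rgnef libraries it had 331.6, 341.8 and 285.9 FPKM (limma adjusted p = 0.00625). Upk3b had 319.1, 317.8 and 116.3 FPKM in the knockout libraries, against 119.5, 114.7 and 42.6 FPKM in the GFP_Rgnef libraries. Its groups overlapped, and it was not called (limma adjusted p = 0.0878). Of 7 leucocyte markers 1 (Cd68) reached 1 FPKM on average and Ptprc had a highest value of 0.018. Of 5 endothelial markers 1 (Tek) did, at 85.7 to 145.8 FPKM in the knockout and 95.6 to 108.2 FPKM in GFP_Rgnef libraries, while Pecam1 and Cdh5 were near 0. Over all 6 libraries 0 of 5 adipocyte and fibroblast markers reached that mean. Of these Pdgfra had 1.17, 0.560 and 1.39 FPKM in the knockout libraries, against 0.358, 0.412 and 0.538 FPKM in the GFP_Rgnef libraries, with no overlap (limma adjusted p = 0.114). The part of these markers in the differences below was not tested. Across all genes the library numbered 3 stood apart within both groups on the second principal component, which carried 25.2% of the variance. The first component, with 55.4%, separated the groups.

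Aldh3a1 and Aldh1a1 exchanged places between the groups. Aldh3a1 (ENSMUSG00000019102, GRCm38 chromosome 11, 61207537 to 61218421, plus strand) encodes an enzyme of medium-chain and aromatic aldehydes that is abundant in the cornea. It had 2.54, 1.85 and 4.28 FPKM in the knockout libraries, against 38.9, 48.2 and 103.1 FPKM in the GFP_Rgnef libraries. The groups did not overlap, and the library numbered 3 was the highest of each group. The means were 2.89 ± 1.25 FPKM in the knockout and 63.4 ± 34.7 FPKM in GFP_Rgnef libraries (SD, n = 3 each), 21.9-fold lower in the knockout. The knockout values rest on 58, 41 and 91 reads and the GFP_Rgnef values on 840, 973 and 2262 reads. The difference, knockout minus GFP_Rgnef on the log2(FPKM + 1) scale, was -3.97 (SE 0.35). That scale understates changes of low genes, and with a pseudocount of 0.1 the difference was -4.36. Without both libraries numbered 3 it was -3.80. In RNA from whole cultures, fewer cells with a transcript and less of it per cell cannot be told apart.

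Aldh1a1 (ENSMUSG00000053279, chromosome 19, 20492715 to 20643465, plus strand), the cytosolic retinaldehyde dehydrogenase, went the other way. It had 13.1, 13.5 and 13.6 FPKM in the knockout libraries, against 1.603, 2.18 and 3.07 FPKM in the GFP_Rgnef libraries. The knockout libraries were close to each other and all above the GFP_Rgnef libraries. The means were 13.4 ± 0.271 FPKM in the knockout and 2.28 ± 0.741 FPKM in GFP_Rgnef libraries (SD, n = 3 each), 5.88-fold higher in the knockout. Reads were 484, 484 and 468 in the knockout and 56, 71 and 109 in GFP_Rgnef libraries. The log2(FPKM + 1) difference was 2.16 (SE 0.15), or 2.32 without the libraries numbered 3.

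**Figure D1:**
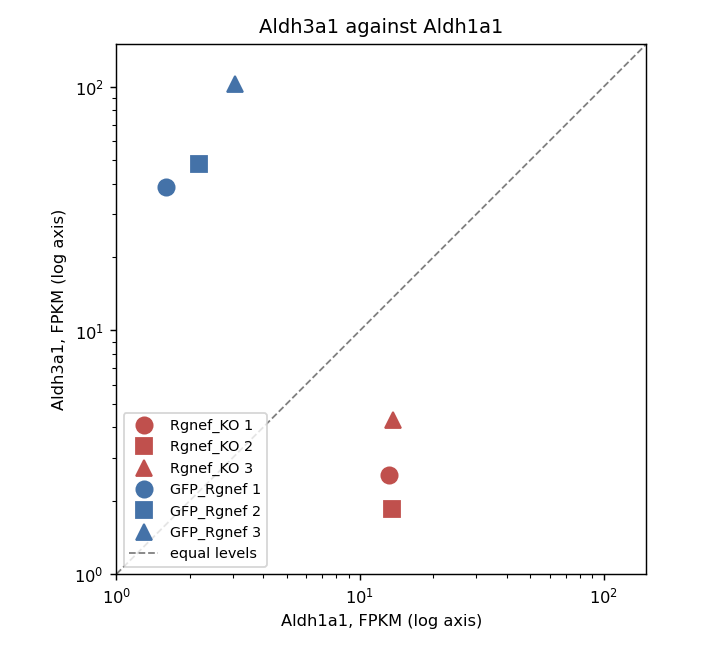
FPKM of Aldh3a1 (vertical log axis) against Aldh1a1 (horizontal log axis), 1 point per library, with the dashed line at equal levels. The 3 knockout libraries lie below the line with 13.1 to 13.6 FPKM of Aldh1a1, and the 3 GFP_Rgnef libraries lie above it with 38.9 to 103.1 FPKM of Aldh3a1.

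The ratio of Aldh3a1 to Aldh1a1 in a library was 0.194, 0.137 and 0.314 in the knockout libraries, against 24.2, 22.2 and 33.5 in the GFP_Rgnef libraries. Each knockout library thus held more Aldh1a1 than Aldh3a1 and each GFP_Rgnef library the reverse. The log2 ratio averaged -2.30 ± 0.602 in the knockout and 4.71 ± 0.315 in GFP_Rgnef libraries (SD, n = 3 each), a difference of -7.01. The pair was chosen for this pattern. The exchange was not of equal size, since Aldh1a1 was higher by 11.1 FPKM in the knockout while the difference of Aldh3a1 was -60.5 FPKM. The gain was 18.4% of the loss, and both genes together came to 16.3 ± 1.37 FPKM in the knockout and 65.7 ± 35.4 FPKM in GFP_Rgnef libraries (SD, n = 3 each).

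The other retinaldehyde dehydrogenases were near the limit of detection. Aldh1a2 had 1 read in 1 knockout library and 0 in the other 5 libraries. A count of 0 allows up to 3 reads, and 3 reads are 0.0737 to 0.0833 FPKM over the depths of all libraries. Aldh1a3 had 0.151, 0.0780 and 0.162 FPKM in the knockout libraries, against 0.200, 0.0854 and 0 FPKM in the GFP_Rgnef libraries, from at most 5 reads. Both stayed under the mean of 0.5 FPKM required for the test, and no difference was detectable at this depth. Of the RNA of the Aldh1a members, nearly all was Aldh1a1 in both groups. The sum of these 3 genes was 13.6 ± 0.249 FPKM in the knockout and 2.38 ± 0.644 FPKM in GFP_Rgnef libraries (SD, n = 3 each).

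The mitochondrial members, Aldh2 and Aldh1b1, stood at very different levels. Aldh2 (chromosome 5, 121566027 to 121593824, minus strand), which clears acetaldehyde, had 74.9, 52.5 and 84.5 FPKM in the knockout libraries, against 102.8, 135.5 and 143.1 FPKM in the GFP_Rgnef libraries. The groups did not overlap, though the highest knockout library and the lowest GFP_Rgnef library were nearer to each other than the ends of either group. The means were 70.7 ± 16.4 FPKM in the knockout and 127.2 ± 21.4 FPKM in GFP_Rgnef libraries (SD, n = 3 each), with a log2(FPKM + 1) difference of -0.85 (SE 0.18). Aldh1b1, a close relative of Aldh2, had 0.892, 0.670 and 0.827 FPKM in the knockout libraries, against 0.514, 0.504 and 0.253 FPKM in the GFP_Rgnef libraries. Its log2(FPKM + 1) difference was 0.34 (SE 0.14), and it was not called. It passed the filter through its level in the knockout libraries, and its values rest on 16 to 22 reads in knockout and 6 to 12 reads in GFP_Rgnef libraries.

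Of the other Aldh3 members, Aldh3a2 (chromosome 11, 61223417 to 61267464, minus strand), the fatty aldehyde dehydrogenase, had 29.6, 30.7 and 29.1 FPKM in the knockout libraries, against 35.0, 39.2 and 36.5 FPKM in the GFP_Rgnef libraries. The difference was small (-0.30, SE 0.070, log2 scale), the groups did not overlap, and the spread within each group was narrow. Aldh3a2 lies 4995 bases from Aldh3a1 on the opposite strand, with no annotated gene between them. The neighbours thus differed in the same direction by 1.24-fold and 21.9-fold. Aldh3b1, a membrane-associated enzyme of lipid aldehydes, had 4.21, 3.16 and 4.65 FPKM in the knockout libraries, against 4.73, 5.90 and 6.61 FPKM in the GFP_Rgnef libraries. Its groups were separated by less than the spread inside either of them (log2 difference -0.43, SE 0.15).

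Aldh7a1, the lysine-catabolism enzyme antiquitin, had 16.2, 14.2 and 17.3 FPKM in the knockout libraries, against 11.9, 10.7 and 13.7 FPKM in the GFP_Rgnef libraries. The difference was 0.37 (SE 0.11, log2 scale). Its exons overlap those of Phax on the opposite strand by 300 bases, and without strand information those reads cannot be told apart. Aldh9a1, which acts in carnitine synthesis, had 24.7, 23.3 and 29.2 FPKM in the knockout libraries, against 25.7, 26.1 and 30.4 FPKM in the GFP_Rgnef libraries. These overlapped, with a log2 difference of -0.09 (SE 0.10).

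**Figure D2:**
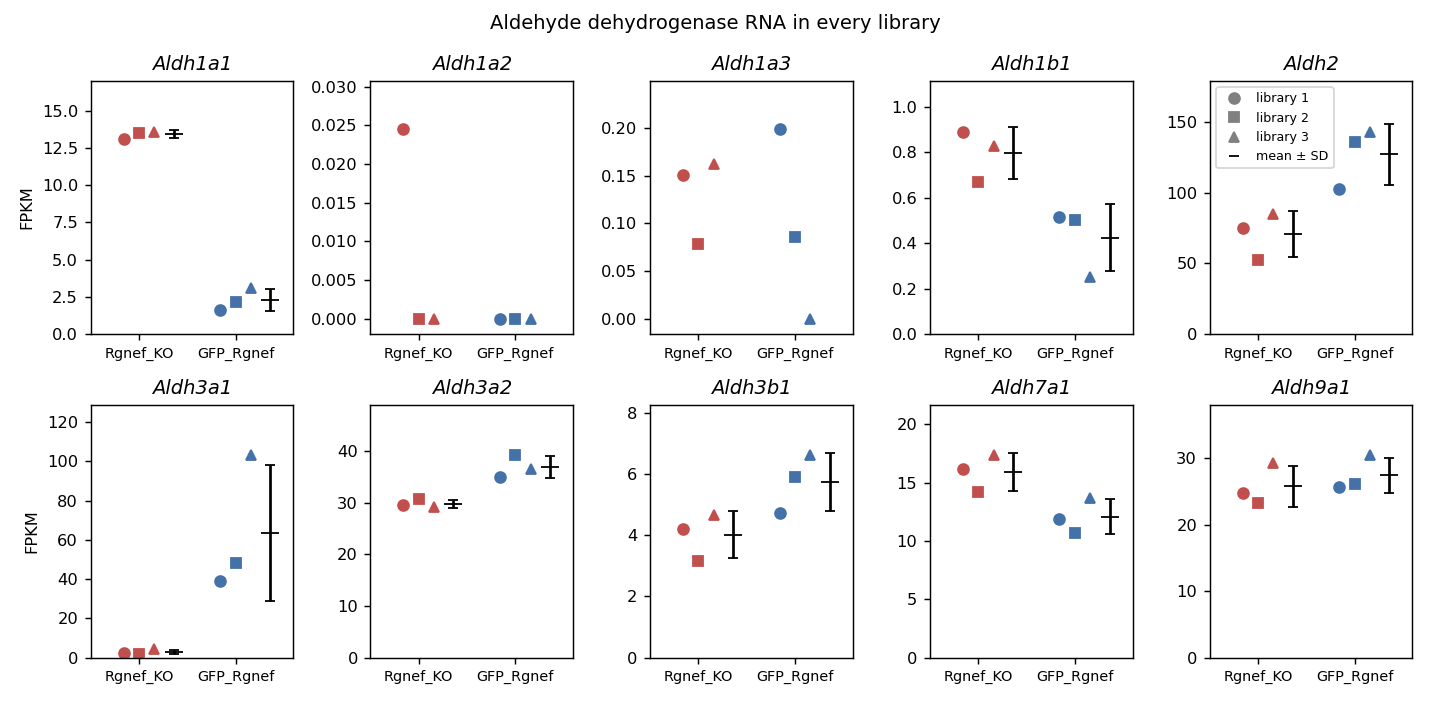
FPKM of the 10 members in every library (vertical axes differ between panels), knockout in red and GFP_Rgnef in blue, symbols for library number, with mean ± SD (n = 3) at the right of each group except for Aldh1a2 and Aldh1a3, which have libraries at 0. The groups do not overlap for 7 of the 8 members that were tested, and Aldh9a1 is the exception. Of all genes tested 33.4% did not overlap. The members were chosen with this contrast known, so nothing is read from the count.

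Of the 10 members 8 passed the filter. The fit over all genes called 1 member higher (Aldh1a1) and 3 lower (Aldh3a1, Aldh2 and Aldh3a2) in the knockout, and 4 were not called. Over all 11500 genes tested 13.4% were called, 8.04% higher and 5.34% lower in the knockout, and 33.4% had libraries that did not overlap. These shares include chromosome 7, with 236 of 819 tested genes called higher and 7 lower. They also include chromosome 9, with 234 of 639 called higher and 8 lower. The median difference of the 8 members was -0.19, beside -0.016 for all genes tested. As the choice of members used this contrast, nothing is read from these counts. Without Rgnef_KO library 2, or without GFP_Rgnef library 2, 1 member was called lower instead of 3, and without the libraries numbered 3 the calls were 2 higher and 3 lower. Without GFP_Rgnef library 3 alone, 2 were called higher. Aldh1a1 and Aldh3a1 were called in all 16 alternative settings, which used the libraries they were chosen from.

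Only Aldh3a1 and Aldh1a1 changed places in the order of the 10 members. In the knockout libraries the order of mean FPKM was Aldh2, Aldh3a2, Aldh9a1, Aldh7a1, Aldh1a1, Aldh3b1, Aldh3a1, Aldh1b1, Aldh1a3 and Aldh1a2. In the GFP_Rgnef libraries Aldh3a1 stood at rank 2 and Aldh1a1 at rank 7, with the other members in the same order among themselves. The ranges of neighbours overlapped for Aldh3a2 and Aldh9a1 and for Aldh3b1 and Aldh3a1 in the knockout libraries. In GFP_Rgnef libraries they overlapped for Aldh2 and Aldh3a1, for Aldh3a1 and Aldh3a2, and for Aldh1a3 and Aldh1a2.

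The family total was lower in the knockout. The 10 members summed to 166.4, 140.0 and 183.8 FPKM in the knockout libraries, against 221.3, 268.3 and 336.8 FPKM in the GFP_Rgnef libraries. The totals did not overlap, and the library numbered 3 had the highest total of each group. The means were 163.4 ± 22.0 FPKM in the knockout and 275.5 ± 58.1 FPKM in GFP_Rgnef libraries (SD, n = 3 each), a ratio of 0.593, or 0.626 without the libraries numbered 3. Counted as recovered reads scaled to depth (CPM), the total was 312.5 ± 42.1 in the knockout and 483.9 ± 90.2 in GFP_Rgnef libraries (SD, n = 3 each), a ratio of 0.646.

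Aldh2 and Aldh3a1 made up most of the lower total. The 5 members that were lower in the knockout were lower by 127.5 FPKM in sum, and 91.8% of this was Aldh3a1 and Aldh2. The 5 members that were higher gained 15.4 FPKM, of which Aldh1a1 gave 11.1 and Aldh7a1 gave 3.82. Without Aldh3a1 and Aldh1a1 the total was 147.1 ± 20.9 FPKM in the knockout and 209.8 ± 25.9 FPKM in GFP_Rgnef libraries. With Aldh2 left out as well it was 76.4 ± 4.66 FPKM in the knockout and 82.6 ± 4.75 FPKM in GFP_Rgnef libraries (SD, n = 3 each), a ratio of 0.925, and here the libraries of the groups overlapped.

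**Figure D3:**
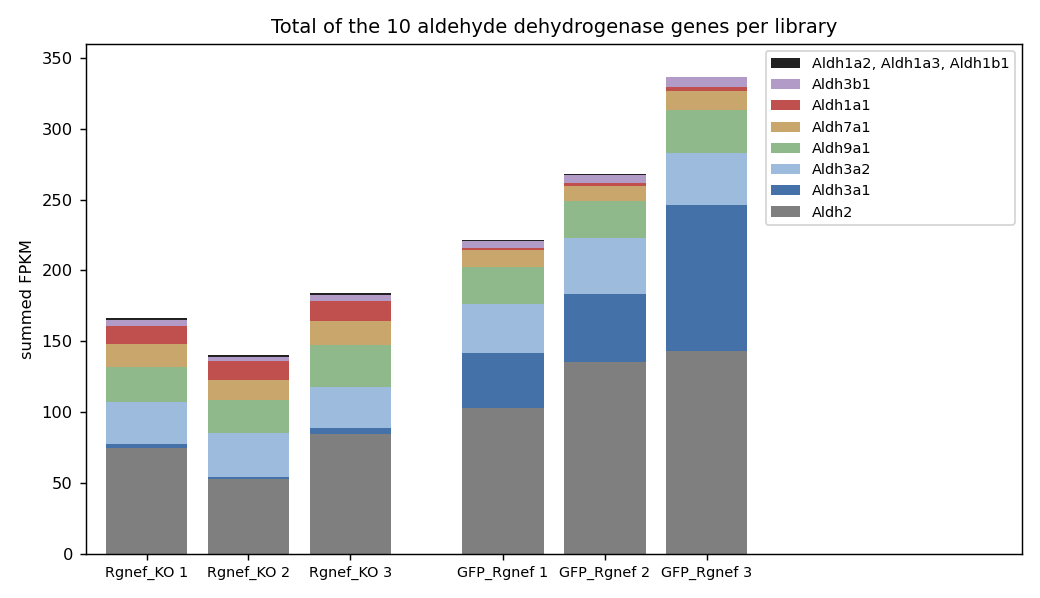
Summed FPKM of the 10 members in each library, knockout libraries at the left, stacked by gene. The total is 140.0 to 183.8 FPKM in the knockout and 221.3 to 336.8 FPKM in GFP_Rgnef libraries, with Aldh2 the thickest layer in all 6.

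Aldh3a1 made up 1.73 ± 0.531% of the family total in the knockout and 22.0 ± 7.42% in GFP_Rgnef libraries. For Aldh1a1 the share was 8.32 ± 1.20% in the knockout and 0.816 ± 0.0941% in GFP_Rgnef libraries. The share of Aldh2 was 42.9 ± 4.65% in the knockout and 46.5 ± 4.004% in GFP_Rgnef libraries (SD, n = 3 each in all cases), and its libraries overlapped. The Aldh3 members together came to 36.7 ± 1.22 FPKM in the knockout and 106.0 ± 35.6 FPKM in GFP_Rgnef libraries (SD, n = 3 each).

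The library number mattered for several members. The library numbered 3 had the highest value in the knockout group for 7 of 10 members and in the GFP_Rgnef group for 6, and for 6 in both. Aldh3a1 in it was 1.95 times the mean of the other libraries in the knockout and 2.37 times in GFP_Rgnef. Nqo1, a quinone reductase, behaved alike at 1.98 times in the knockout and 2.05 times in GFP_Rgnef. For Aldh1a1 the values were 1.02 times in the knockout and 1.63 times in GFP_Rgnef. The part of this split in the differences between groups was not tested beyond leaving these libraries out.

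Among the 11 other Aldh genes, 6 passed the filter, with a median difference of 0.08. In the knockout limma called 0 of them higher and 1 lower, beside 8.04% higher and 5.34% lower of all genes tested. At an unadjusted p below 0.05, which 14.9% of all genes tested passed as higher and 13.5% as lower, the numbers were 1 higher and 1 lower. Limma's voom on recovered reads called 0 higher and 1 lower, beside 994 higher and 577 lower of all 11500 genes tested. Aldh6a1, which acts in valine and pyrimidine breakdown, fell to 2.85 ± 0.564 FPKM in the knockout, against 4.46 ± 0.566 FPKM in GFP_Rgnef libraries (SD, n = 3 each; log2 difference -0.51, limma adjusted p = 0.0474). This call was lost in 9 of 15 alternatives, and Aldh6a1 exons overlap those of Bbof1 on the opposite strand.

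Aldh18a1, which makes a precursor of proline, was the most abundant Aldh gene of the knockout libraries, at 111.4, 109.4 and 95.4 FPKM, against 95.1, 96.3 and 81.7 FPKM in the GFP_Rgnef libraries (log2 difference 0.21, limma adjusted p = 0.170). Aldh16a1 averaged 23.9 ± 2.33 FPKM in the knockout and 22.2 ± 1.46 FPKM in GFP_Rgnef libraries (SD, n = 3 each; limma adjusted p = 0.559). It lies on chromosome 7, whose 819 tested genes had a median difference of 0.24, and its exons overlap Pih1d1. Aldh4a1 and Aldh5a1, which act on a proline breakdown product and on succinate semialdehyde, stood between 0.591 and 1.15 FPKM in all libraries and were not called. Aldh1l2, of mitochondrial folate metabolism, had 0.910 to 1.503 FPKM in the knockout and 0.580 to 1.17 FPKM in GFP_Rgnef libraries. Its exons overlap the more abundant D10Wsu102e. Aldh1l1 and Aldh8a1 had at most 4 reads in a library, and Aldh3b2 and Aldh3b3 had 0 in all 6, where a count of 0 allows up to 3 reads per library.

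With all 21 Aldh genes summed, the total was 299.0 ± 19.8 FPKM in the knockout and 395.9 ± 50.8 FPKM in GFP_Rgnef libraries (SD, n = 3 each), a ratio of 0.755. That sum includes Aldh18a1 and Aldh16a1, which were not called.

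**Figure D4:**
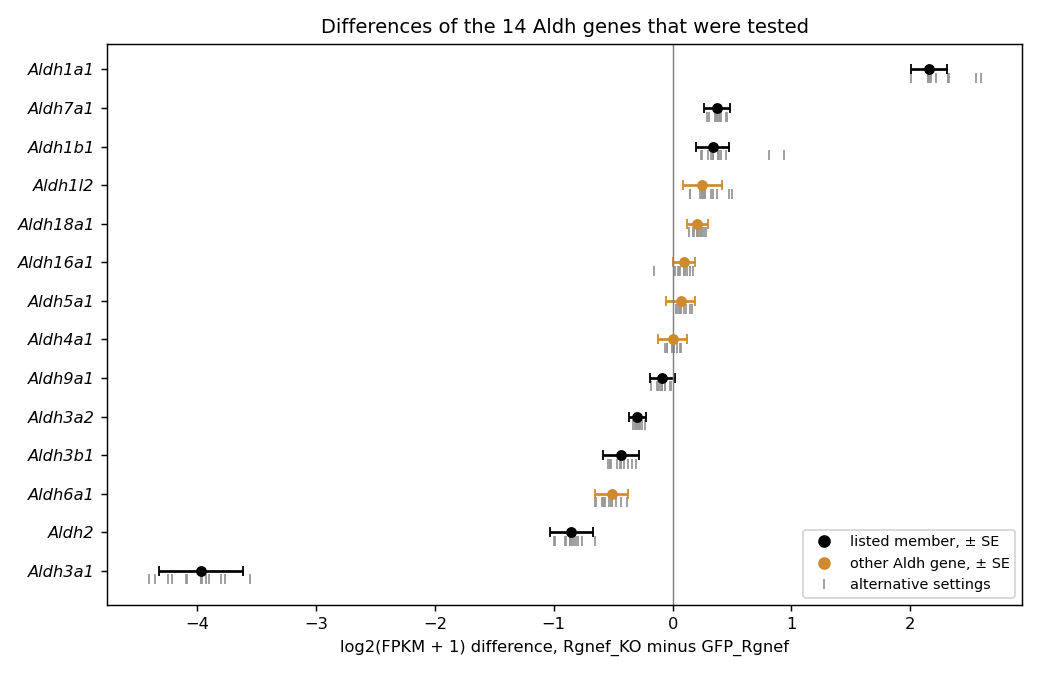
Log2(FPKM + 1) differences, knockout minus GFP_Rgnef, of the 14 Aldh genes that passed the filter, with SE bars, listed members in black and other Aldh genes in orange, and grey ticks for the alternative settings (voom on its own log2 scale). Aldh1a1 at 2.16 and Aldh3a1 at -3.97 stand apart from the other genes, which lie between -0.85 and 0.37.

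Aldh1a7, a rodent relative of Aldh1a1, followed its neighbour at a much lower level. It had 0.619, 0.556 and 0.520 FPKM in the knockout libraries, against 0.142, 0.274 and 0.252 FPKM in the GFP_Rgnef libraries, from 18 to 23 reads in knockout and 5 to 9 reads in GFP_Rgnef libraries. The groups did not overlap. It was under the filter, and with no filter the difference was 0.36 (SE 0.062, limma adjusted p = 0.0278). The part of sequence shared with Aldh1a1 in this difference was not tested. The genes lie 49487 bases apart on chromosome 19, on opposite strands, with no annotated gene between.

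The promoters of this pair are shown since both genes were higher in the knockout libraries. The sequences are RefSeq windows on GRCm38.p6 from 250 bases before to 50 bases after the gene start, 5′ to 3′ on the gene's strand, with the letters CCAAT in capitals. RefSeq gives Aldh1a1 a further start upstream, whose window held no CCAAT.
Aldh1a1, chr19:20601718-20602017, plus strand: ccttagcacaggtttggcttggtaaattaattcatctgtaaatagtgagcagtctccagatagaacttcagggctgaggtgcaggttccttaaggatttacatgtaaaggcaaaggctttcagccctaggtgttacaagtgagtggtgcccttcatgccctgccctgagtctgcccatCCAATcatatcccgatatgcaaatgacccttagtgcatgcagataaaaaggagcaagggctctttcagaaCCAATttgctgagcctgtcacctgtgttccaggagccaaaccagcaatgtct
Aldh1a7, chr19:20727507-20727806, minus strand: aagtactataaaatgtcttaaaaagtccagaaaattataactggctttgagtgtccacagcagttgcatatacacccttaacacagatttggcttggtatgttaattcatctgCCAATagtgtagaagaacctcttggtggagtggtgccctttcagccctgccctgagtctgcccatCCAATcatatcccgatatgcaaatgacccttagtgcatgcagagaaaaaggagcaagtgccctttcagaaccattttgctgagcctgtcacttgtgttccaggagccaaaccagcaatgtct
The windows had 77.5% identical bases over 285 aligned bases, and both held CCAAT 72 bases before the start. CCAAT, on either strand, occurred in 37.4% of the 32851 promoter windows of that length. Of the 10 members 6 had an entry in the promoter table, and Aldh3a1, Aldh2, Aldh1a3 and Aldh7a1 had none. Neither Aldh1a1 nor Aldh1a7 windows held TGACNNNGC, the core letters of the antioxidant response element (12.4% of all windows), or GCGTG, the core of the aryl hydrocarbon receptor element (32.4%), both searched on both strands. Aldh9a1 and Aldh1a2 windows held TGACNNNGC, 87 and 112 bases before the start. These are matches of letters and not shown to be sites.

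Genes with the pattern most like that of Aldh3a1 were ranked over the 6 libraries by the root mean square distance between log2(FPKM + 1) values, each centred on its own mean, among 8470 genes. Gsta1, a glutathione transferase, was nearest at 0.234, with 2.97 ± 0.915 FPKM in the knockout and 48.8 ± 27.4 FPKM in GFP_Rgnef libraries (SD, n = 3 each). Gsta1 has near-identical relatives, so its level is uncertain. The next were Eya2 at 0.880, Cbr3 at 0.956, Arhgef28 itself at 0.966 and Arhgap40 at 1.01. For Aldh1a1 the nearest was Cdh2, the N-cadherin gene, at 0.125, with 44.2 ± 0.279 FPKM in the knockout and 10.1 ± 1.07 FPKM in GFP_Rgnef libraries (SD, n = 3 each). It was followed by Cryab at 0.180, Sdc2 at 0.229, Dse at 0.229 and Il18rap at 0.236. All of these were found by likeness to the contrast between the groups, so their differences are no separate result.

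Retinoid genes are upstream and downstream of Aldh1a1. Of 26 listed, 13 passed the filter, 3 rose in the knockout and 0 fell (limma, adjusted p below 0.05), and the median difference was 0.03. Over all genes tested 8.04% were called higher and 5.34% lower. Fabp5, a carrier of fatty acids and retinoic acid, was 11.4 ± 2.93 FPKM in the knockout and 3.12 ± 0.212 FPKM in GFP_Rgnef libraries (SD, n = 3 each; log2 difference 1.57, limma adjusted p = 0.00155). Dhrs4, a carbonyl and retinal reductase, was 6.94 ± 0.613 FPKM in the knockout and 3.98 ± 0.851 FPKM in GFP_Rgnef libraries (SD, n = 3 each; limma adjusted p = 0.0147). Rdh13, a mitochondrial retinol dehydrogenase relative, differed by 0.26 (limma adjusted p = 0.0429). Rdh13 lies on chromosome 7, and its call was lost in 9 of 16 alternatives, among them each left-out library and the removal of chromosome medians. With those medians removed its difference was 0.0067.

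The receptor genes Rara, Rarg, Rxra and Rxrb, chosen from the list after their values were seen, were not called. Rara averaged 20.3 ± 2.31 FPKM in the knockout and 20.4 ± 1.93 FPKM in GFP_Rgnef libraries, and Rarg 54.5 ± 5.47 FPKM in the knockout and 55.7 ± 5.79 FPKM in GFP_Rgnef libraries (SD, n = 3 each). Rxra averaged 40.2 ± 9.62 FPKM in the knockout and 54.5 ± 4.88 FPKM in GFP_Rgnef libraries (SD, n = 3 each; log2 difference -0.45, limma adjusted p = 0.0963). Rarb, chosen likewise and under the filter, had 0.697, 0.606 and 0.394 FPKM in the knockout libraries, against 0.213, 0.166 and 0.0572 FPKM in the GFP_Rgnef libraries, with no overlap. Its exons overlap those of the far more abundant Top2b on the opposite strand, and without strand their reads cannot be told apart. At an unadjusted p below 0.05, 3 retinoid genes were higher and 1 lower (all genes: 14.9% higher and 13.5% lower). Voom called 3 higher and 0 lower. Without Rgnef_KO library 2, or without GFP_Rgnef library 2, 1 retinoid gene was called higher instead of 3, and without the libraries numbered 3, or without Rgnef_KO library 3 alone, 2 were called lower.

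Aldh3a1 is a known target of the aryl hydrocarbon receptor, with Nfe2l2 (NRF2) a further regulator of that gene battery. Of 12 listed genes 7 were tested, 0 rose and 3 fell (limma), with a median difference of -0.12. The shares over all genes tested were 8.04% higher and 5.34% lower. At an unadjusted p below 0.05, 1 was higher and 3 lower (all genes: 14.9% higher and 13.5% lower). Voom called 0 higher and 3 lower. The receptor gene Ahr itself averaged 34.1 ± 3.98 FPKM in the knockout and 33.9 ± 1.24 FPKM in GFP_Rgnef libraries (SD, n = 3 each; limma adjusted p = 0.991). Its target Cyp1b1 averaged 76.8 ± 10.5 FPKM in the knockout and 83.6 ± 10.4 FPKM in GFP_Rgnef libraries (SD, n = 3 each; limma adjusted p = 0.558). Both were chosen from the list after their values were seen, and they do not stand for the list. Tiparp, picked likewise, averaged 15.0 ± 1.85 FPKM in the knockout and 11.6 ± 1.30 FPKM in GFP_Rgnef libraries (SD, n = 3 each). Its groups did not overlap, and it was not called (limma adjusted p = 0.0880). Cyp1a1, picked likewise and under the filter, had 4, 0 and 17 reads in the knockout and 5, 10 and 61 in GFP_Rgnef libraries. The activity of the receptor was not tested.

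Nfe2l2 fell to 87.9 ± 4.86 FPKM in the knockout, against 112.3 ± 2.45 FPKM in GFP_Rgnef libraries (SD, n = 3 each; limma adjusted p = 0.0108). Nqo1 had 41.3, 38.4 and 78.9 FPKM in the knockout libraries, against 89.7, 111.9 and 206.6 FPKM in the GFP_Rgnef libraries (log2 difference -1.33, limma adjusted p = 0.0381). The Nqo1 call was lost in 7 of 16 alternatives. Without GFP_Rgnef library 2, 1 gene of this list was called lower instead of 3, and without the libraries numbered 3, 1 was called higher.

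Of 17 alcohol dehydrogenases and oxidases, which make or remove aldehydes, 8 were tested, 0 rose and 2 fell (limma), with a median of -0.43. Beside this, 8.04% of all genes tested were called higher and 5.34% lower. At an unadjusted p below 0.05, 0 were higher and 5 lower (all genes: 14.9% higher and 13.5% lower), and voom called 0 higher and 3 lower. Adh7, a retinol-active alcohol dehydrogenase, fell to 6.88 ± 0.464 FPKM in the knockout, against 13.4 ± 4.24 FPKM in GFP_Rgnef libraries (SD, n = 3 each; limma adjusted p = 0.0231). Aoc2, an amine oxidase, fell by 0.51 on the log2 scale (limma adjusted p = 0.0230). Without Rgnef_KO library 2, or without GFP_Rgnef library 2, 0 of this list were called lower. Without Rgnef_KO library 1, or without GFP_Rgnef library 1, it was 1, and without the libraries numbered 3, or without Rgnef_KO library 3 alone, it was 4.

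Of 10 aldehyde reductases and related enzymes 8 were tested, 0 rose and 2 fell (limma), with a median of -0.28. All genes tested had 8.04% called higher and 5.34% lower. At an unadjusted p below 0.05, 0 were higher and 5 lower, beside the same 14.9% and 13.5% of all genes, and voom called 0 higher and 2 lower. Cbr3, a carbonyl reductase, had 3.80, 2.65 and 4.39 FPKM in the knockout libraries, against 15.3, 17.1 and 25.2 FPKM in the GFP_Rgnef libraries (log2 difference -2.12, limma adjusted p = 0.000886). Gsta4, a transferase for lipid peroxidation aldehydes, fell to 359.7 ± 82.2 FPKM in the knockout, against 735.4 ± 222.0 FPKM in GFP_Rgnef libraries (SD, n = 3 each; limma adjusted p = 0.0201). Gsta4 lies on chromosome 9, whose 639 tested genes had a median difference of 0.28. Without Rgnef_KO library 1, Rgnef_KO library 2 or GFP_Rgnef library 2, 1 gene of this list was called lower instead of 2.

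**Figure D5:**
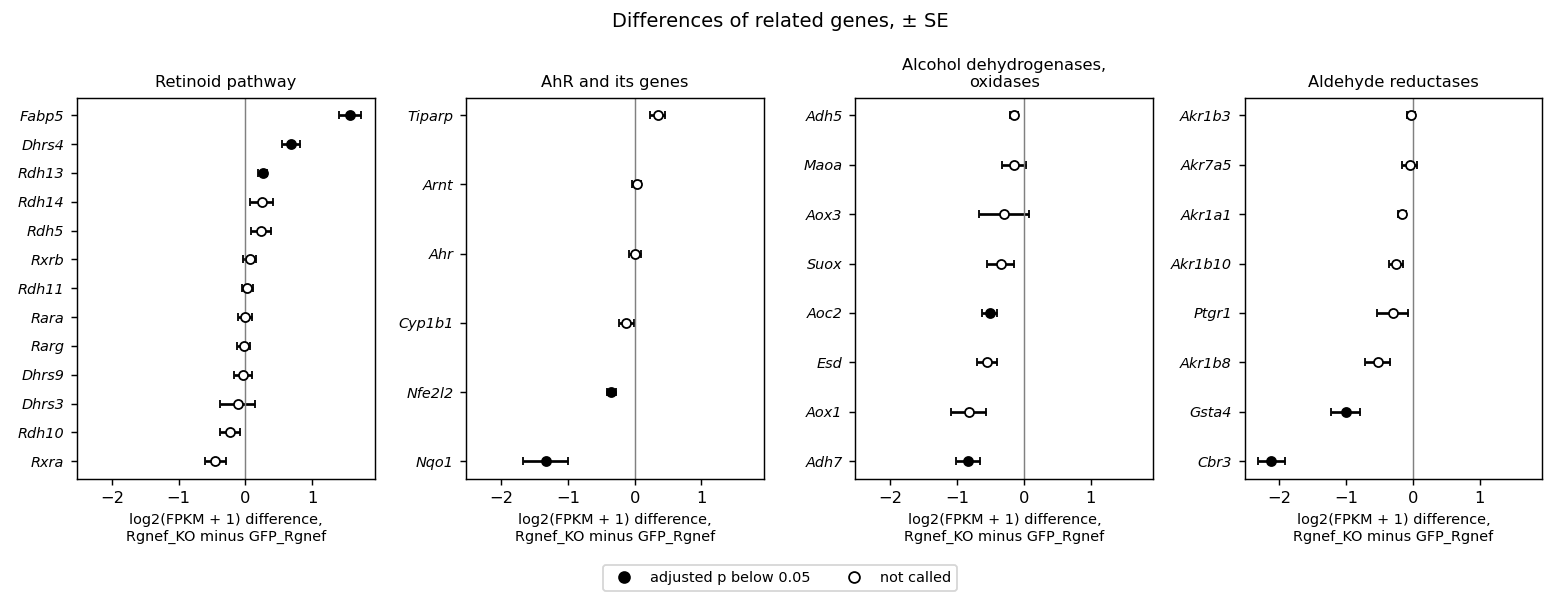
Log2(FPKM + 1) differences, knockout minus GFP_Rgnef, with SE bars, of tested genes of the 4 related lists, with 1 gene not shown, filled where limma adjusted p was below 0.05. Fabp5 at 1.57 and Cbr3 at -2.12 are the ends of the range.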

How the data were processed

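Poly-T selected RNA of 6 libraries was prepared with a NEBNext Ultra kit and sequenced on an Illumina HiSeq instrument, per the labels. Expression was deposited by the authors as FPKM, in a single table. The submitters' processing notes name CASAVA 1.8, TopHat2 2.0.9, DESeq2 and mm10, with no role given, and the handling of strand was not given in the sources used here. GENCODE M21 (GRCm38) gave symbols for 34490 of 35275 identifiers. The FPKM values were whole reads within 0.02 for all 19655 genes above 0, using annotated exon lengths in 4228 cases and otherwise (15427) the shortest fitting length. Recovered reads are thus the smallest whole numbers that fit.

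The test was limma 3.58.1 with trend (R 4.3.3) on log2(FPKM + 1), over 11500 genes averaging 0.5 FPKM or more, adjusted over all of them by Benjamini-Hochberg, with calls at adjusted p below 0.05. No block was used. On simulated data it recovered 66% of 1.5-fold and 94% of 2-fold differences, with 17 false calls among 11441 genes. The simulation gave every gene the same dispersion, had no library 3 split, and changed only genes above a minimum number of reads. These figures therefore do not give the recovery or the false calls in these libraries. Differences are Rgnef_KO minus GFP_Rgnef. The members and lists were chosen with earlier results of these data known. Named genes are the members, Arhgef28, the other Aldh genes, the called list members with the smallest p (up to 4 a list) and the 5 genes most like Aldh3a1 and Aldh1a1; others are marked where named. Of the genes counted in the lists, 1 is not reported here. Identities were computed with biopython 1.88, tables with Python 3.11.15, pandas 2.3.3 and numpy 2.4.6, plots with matplotlib 3.10.9. In all, 16 alternatives covered the pseudocount, filter, scaling, variance model, recovered reads with voom, block, chromosome medians and left-out libraries.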

Additional observations from a re-analysis of the deposited data

How the results depend on the processing

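Aldh1a1 and Aldh3a1 kept direction and call in all 16 settings, over ranges of 2.00 to 2.59 and -4.41 to -3.56. The pair was chosen from this contrast in the same libraries, so this describes the settings and is no test of the pair. Aldh2 lost its call in 4 and Aldh3a2 in 6, with their direction kept. Aldh7a1 gained a call in 3 and Aldh3b1 in 1. Among related genes Fabp5 and Cbr3 kept their calls in all 16, Dhrs4 lost its call in 3, Rdh13 in 9, Nqo1 in 7 and Adh7 and Gsta4 in 4. The causes were not tested. Depth limits Aldh1a2, Aldh1a3, Aldh1a7 and Aldh1b1, each with fewer than 25 reads in a library.

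Over all genes, 925 were called higher and 614 lower in the knockout. With no filter 394 were lower. With voom on recovered reads 994 were higher and 577 lower. With each chromosome's median removed 494 were higher and 388 lower, and without the libraries numbered 3, 1048 were lower. With 1 library left out at a time, 455 to 850 were higher and 198 to 578 lower. Members called higher were 2 without the libraries numbered 3, and 1 to 2 with 1 library left out, and those lower were 1 to 2 in that case. Other Aldh genes called higher were 1 with no filter and 1 without the libraries numbered 3. Those lower were 0 with a pseudocount of 0.1, with no filter, with genes under 5 FPKM left out, with TPM scaling and with chromosome medians removed, and 0 to 1 with 1 library left out. Retinoid genes called higher were 1 to 2, and lower 0 to 2, with 1 library left out, and 2 were lower without the libraries numbered 3. Aryl hydrocarbon receptor genes called higher were 1 without the libraries numbered 3, and lower 1 to 3 with 1 library left out. Alcohol dehydrogenases and oxidases called lower were 0 with no filter, 1 with genes under 5 FPKM left out, 4 without the libraries numbered 3 and 0 to 4 with 1 library left out. Aldehyde reductases called lower were 1 with no filter and 1 to 3 with 1 library left out.

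Aldh4a1 changed sign around 0: its difference was 0.0001 as reported, -0.0032 with a pseudocount of 0.1, -0.0011 with voom, -0.0433 without the libraries numbered 3, and -0.0628 to 0.0629 with 1 library left out. Aldh16a1 was -0.15 with chromosome medians removed. The family ratio was 0.755 with all 21 genes and 0.540 to 0.667 with 1 library left out. The log2 ratio of Aldh3a1 to Aldh1a1 differed by -6.13 with a pseudocount of 1.

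Replicate numbers paired the libraries only in part. Deviations of same-numbered libraries from their group means correlated at 0.321, -0.0199 and 0.552, and not every library correlated best with its own number. Those numbered 3 did, and pairing either of them with a library numbered 1 or 2 gave -0.523 to -0.200. Deviations from a group mean cancel within the group, so these negative values are not separate evidence. Numbers 1 and 2 were not told apart. The main test used no block and so left the library 3 split in its error. With the number as a replicate block, 1517 genes were called higher and 1253 lower, members 2 higher and 4 lower, other Aldh genes 1 higher, retinoid genes 1 lower, aryl hydrocarbon receptor genes 1 higher, alcohol dehydrogenases and oxidases 5 lower and aldehyde reductases 4 lower.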

Other observations

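Cyp26b1, which breaks down retinoic acid and was picked out after its values were seen, had 1, 3 and 2 reads in the knockout libraries, against 15, 26 and 78 reads in the GFP_Rgnef libraries. That is 0.0118, 0.0365 and 0.0253 FPKM in the knockout libraries, against 0.187, 0.346 and 0.955 FPKM in the GFP_Rgnef libraries. The groups did not overlap, and the gene was under the filter and not tested.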
